A study of Mus with 4 samples.

Results

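Endothelial fatty acid uptake is represented here by 6 genes, chosen by their Ensembl identifiers from a deposited table of 54532 mouse genes: Cd36, Fabp4, Fabp5, Lpl, Gpihbp1 and Pparg. All 6 are in the table, and all 6 were among the 15510 genes that passed the filter on low counts. The libraries were RNA-seq of liver sinusoidal endothelial cells (LSECs), the fenestrated lining cells of the liver sinusoids, taken from mice given carbon tetrachloride (CCl4), a liver toxin that causes scarring. The libraries CTL1 and CTL2 came from control mice, and KO1 from Pofut1 knockout mice, abbreviated P1KO. KO3 was placed in P1KO by its column name, since no sample title carries that number. Both groups had received CCl4, so no library shows the untreated liver. The title of the series places the role of POFUT1 in the endothelium. Strain, age and sex of the mice, the CCl4 schedule, any Cre driver and the alleles of the controls were not given in the sources used here.

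Fatty acids reach tissues largely as triglyceride in lipoproteins. Lipoprotein lipase, encoded by Lpl, splits this triglyceride at the capillary wall, where the endothelial protein GPIHBP1 holds the enzyme. CD36 then binds the released fatty acids at the cell membrane, the small proteins FABP4 and FABP5 carry them in the cytosol, and PPARγ, a nuclear receptor that fatty acids can activate, switches on genes of lipid handling, Fabp4 and Cd36 among its known targets. In sinusoidal endothelium CD36 also serves as a scavenger receptor. Fabp4 has been described as a target of VEGF and Notch signalling in endothelial cells, and POFUT1 attaches O-linked fucose to Notch receptors. The comparison of P1KO with CTL therefore asks how the levels of these genes differ between LSECs of mice labelled as Pofut1 knockout and of controls.

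The libraries held between 17464769 and 17918834 counts each, and the 6 genes together took between 0.331% and 0.369% of them. The spread within CTL was much smaller than within P1KO, since the biological coefficient of variation over the tested genes was 3.23% and 12.1%, respectively. Whether each library stands for a mouse of its own is not labelled. The p-values therefore rest on the spread among 4 libraries, part or all of which may be technical. The test used below takes the same spread for both groups and moderates it by that of the other genes. Its SEs, intervals and p-values rest on this. The labels name liver and LSECs, but their extraction protocol speaks of RNA from heart ventricles. Capillary endothelium of the heart also makes Cd36, Fabp4 and Gpihbp1, so the presence of these genes does not tell the tissues apart. The gene table at hand holds no Ensembl identifiers, so Pofut1 itself, the markers of sinusoidal endothelium, heart muscle, macrophages, adipocytes and other cells, and further genes of lipid uptake are not analysed here. Their part in the results below was not tested.

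In P1KO the nuclear receptor gene Pparg and the fatty acid carrier gene Fabp4 rose, and Gpihbp1, which encodes the endothelial anchor of lipoprotein lipase, fell. Pparg was 1.87-fold and Fabp4 1.44-fold its CTL level, and Gpihbp1 was 0.757-fold. Cd36, Fabp5 and Lpl did not pass the test, with fold values of 1.12, 1.10 and 0.925. Thus 2 of the 6 genes were called higher, 1 lower and 3 not (edgeR quasi-likelihood test, p adjusted over all tested genes by Benjamini-Hochberg and below 0.05). Of all tested genes 9.68% were called higher and 9.84% lower, 19.5% in all, and 27.6% were called among the genes above the median level, where 5 of the 6 genes lie. The median log2 fold change was 0.15 over the 6 genes and -0.01 over all tested genes. All 3 calls needed both CTL libraries. Without CTL1 or CTL2 log2 fold changes were 0.52 and 0.51 for Fabp4, -0.40 and -0.41 for Gpihbp1 and 0.91 and 0.88 for Pparg. Such a fit takes its spread from the other group alone. The spread differed between the groups, so the number of calls depends on which library is left out.

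**Figure D1:**
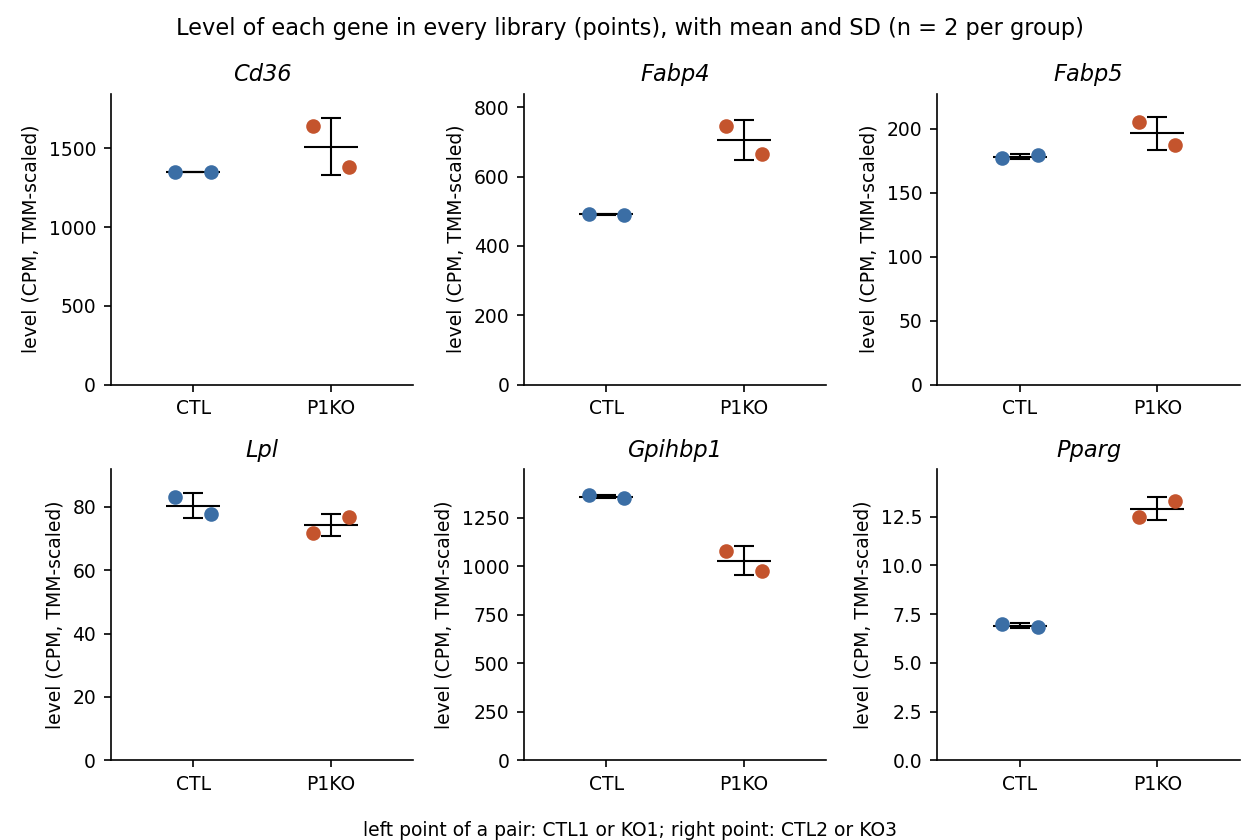
Level of each of the 6 genes (CPM, TMM-scaled, linear axes from 0) in the CTL (blue) and P1KO (orange) libraries, with the group mean and SD (n = 2). Both P1KO points lie above both CTL points for Fabp4 and Pparg and below them for Gpihbp1, and for Cd36 KO3 at 1383 CPM lies close to the CTL points near 1351 CPM. The groups do not overlap for any of the 6 genes, nor for 62.6% of all tested genes.

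The membrane fatty acid receptor gene Cd36 (ENSMUSG00000002944) spans positions 17781690 to 17888959 of chromosome 5 (GRCm38, the assembly that mm10 denotes). CTL1 held 23716 of its reads, CTL2 24145, KO1 28861 and KO3 24614. Levels are given as CPM, counts scaled to a common library size after TMM, a method that corrects library totals for composition. The level of Cd36 was 1351 and 1352 CPM in the controls, 1640 CPM in KO1 and 1383 CPM in KO3. Only KO1 stood clearly above the controls. KO1 was 21.4% above CTL1, whereas KO3 was 2.38% above it. The group means were 1351 ± 0.807 CPM in CTL and 1511 ± 182 CPM in P1KO (SD, n = 2 each), which is 0.16 ± 0.08 on the log2 scale (SE; edgeR adjusted p = 0.182). The 95% interval of the fold ran from 0.989 to 1.26, so these libraries leave room for no change as well as for a level up to 26.5% above CTL. The mean difference on the log2 scale, 0.16, was smaller than the gap between KO1 and KO3, 0.25. Without KO3 the log2 fold change of Cd36 was 0.28, and without KO1 it was 0.033. The size of the change in Cd36 thus turned on which P1KO library was used.

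Fabp4 (ENSMUSG00000062515, chromosome 3, 10204342 to 10208616) encodes the fatty acid binding protein of adipocytes and of many capillary endothelia. Its reads numbered 8643 and 8753 in CTL1 and CTL2, against 13142 and 11834 in KO1 and KO3, or 492, 490, 747 and 665 CPM. Both P1KO libraries were well above both controls, and the groups did not overlap, as for 62.6% of all tested genes. KO1 was 51.7% above CTL1 and 52.4% above CTL2, and KO3 was 35.1% and 35.7% above them. The level rose from 491 ± 1.54 to 706 ± 57.9 CPM (SD, n = 2 each), by 0.52 ± 0.06 on the log2 scale (SE; edgeR adjusted p = 0.00193). The 95% interval of the fold was 1.30 to 1.59. The difference was 3.11 times the gap between the P1KO libraries on the log2 scale. Leaving out CTL1 or CTL2 gave log2 fold changes of 0.52 and 0.51 with edgeR adjusted p-values of 0.112 and 0.118, so the value held while the call was lost. This change exceeded in size that of 79.1% of the tested genes.

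Fabp5 (ENSMUSG00000027533, chromosome 3, 10012585 to 10016610), the gene of a related carrier also found in skin and macrophages, lies on the same chromosome 187.7 kb from Fabp4, with 4 genes of the RefSeq table between them. The controls had 3106 and 3212 reads of it, KO1 had 3616 and KO3 had 3337, or 177, 180, 205 and 187 CPM. The P1KO libraries lay above the controls by a small margin, since KO3 was 4.25% above CTL2, which is within counting error. The means were 178 ± 2.08 and 196 ± 12.7 CPM (SD, n = 2 each). The log2 fold change was 0.14 ± 0.06 (SE; edgeR adjusted p = 0.170), with a 95% interval of the fold from 0.994 to 1.22. Without KO3 the log2 fold change of Fabp5 was 0.20, and without KO1 it was 0.072. Reads of near-identical copies may be missing or misassigned, and the RefSeq table lists a pseudogene named Fabp5l2.

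Lpl (ENSMUSG00000015568, chromosome 8, 68880555 to 68906932), the lipase gene, had 1459 and 1385 reads in the control libraries, 1264 reads in KO1 and 1366 reads in KO3. These are 83.1, 77.5, 71.8 and 76.7 CPM. KO3 and CTL2 were 1.03% apart, and the groups were separated by no more than that. The means were 80.3 ± 3.92 CPM in CTL and 74.3 ± 3.48 CPM in P1KO (SD, n = 2 each). The log2 fold change was -0.11 ± 0.07 (SE; edgeR adjusted p = 0.291). The 95% interval of the fold was 0.829 to 1.03. That of Gpihbp1, 0.690 to 0.830, barely overlapped it, and the difference between these genes was not tested. Without KO3 the log2 fold change of Lpl was -0.16, and without KO1 it was -0.066.

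Gpihbp1 (ENSMUSG00000022579, chromosome 15, 75596630 to 75598213), made by capillary endothelium to carry and hold the lipase, was read 23963 and 24149 times in CTL1 and CTL2, and 19019 and 17366 times in KO1 and KO3. Its level was 1365 and 1352 CPM in the controls, and 1081 and 976 CPM in KO1 and KO3. Both P1KO libraries lay well below both controls. The level fell by 24.3%, from 1358 ± 8.98 to 1028 ± 74.3 CPM (SD, n = 2 each), with a 95% interval of the fold from 0.690 to 0.830. On the log2 scale the change was -0.40 ± 0.06 (SE; edgeR adjusted p = 0.00354), and the difference was 2.74 times the gap between the P1KO libraries. KO3 was the lower library, at -0.48 against the CTL mean on the log2 scale, and KO1 was at -0.33. Leaving out CTL1 or CTL2 gave log2 fold changes of -0.40 and -0.41 and edgeR adjusted p-values of 0.147 and 0.142. The fall was smaller than the median called fall, which was to 0.611-fold. In bulk RNA, fewer cells of a type and less RNA per cell cannot be told apart.

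Pparg (ENSMUSG00000000440, chromosome 6, 115360879 to 115490404) had the fewest reads, 123 and 122 in the controls, 220 in KO1 and 237 in KO3. The level of Pparg was 7.00 and 6.83 CPM in the controls and 12.5 and 13.3 CPM in KO1 and KO3. The libraries of each group were alike within counting error, and the groups lay far apart. At these read numbers that error is wide. The 95% exact binomial interval was 0.753 to 1.26 for the ratio of CTL2 to CTL1 and 0.883 to 1.29 for KO3 to KO1. The level rose from 6.92 ± 0.123 to 12.9 ± 0.576 CPM (SD, n = 2 each), by 0.90 ± 0.14 on the log2 scale (SE; edgeR adjusted p = 0.00497). The 95% interval of the fold was 1.49 to 2.34, the widest of the 6 genes. From the summed reads, 457 in P1KO and 245 in CTL, the ratio was 1.87 with an exact binomial interval of 1.59 to 2.19, which covers counting error only. The difference was 9.84 times the gap between the P1KO libraries, the highest such value of the 6 genes. That gap lay within counting error, so the multiple is not well resolved. The change in Pparg exceeded in size that of 91.2% of the tested genes. Leaving out CTL1 or CTL2 gave log2 fold changes of 0.91 and 0.88 and edgeR adjusted p-values of 0.120 and 0.127.

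**Figure D2:**
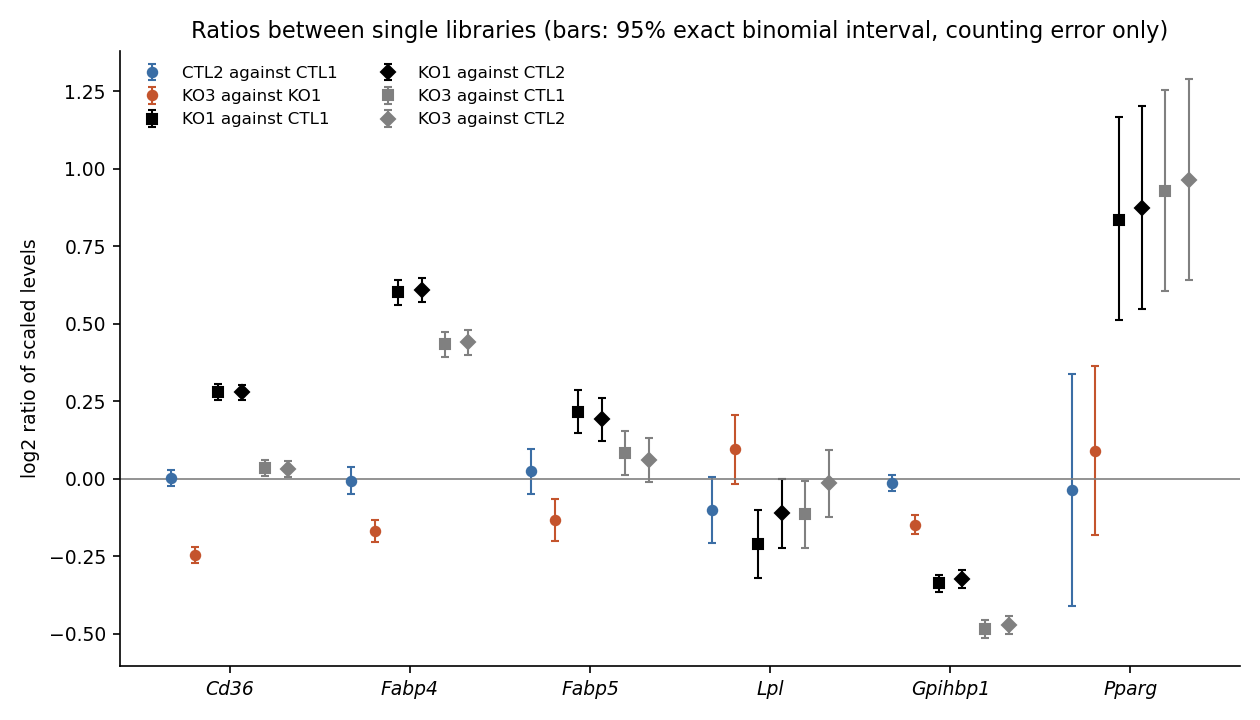
Log2 ratios between single libraries for each gene, within the groups (blue, CTL2 against CTL1; orange, KO3 against KO1) and between them (black, KO1; grey, KO3; squares against CTL1, diamonds against CTL2), with 95% exact binomial intervals that cover counting error only. The intervals of all 4 ratios between groups leave out 0 for Cd36, Fabp4, Gpihbp1 and Pparg. For Cd36, however, the ratios of KO3 are only 0.03, against 0.28 for those of KO1.

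The CTL libraries differed within counting error for every one of the 6 genes, and the P1KO libraries for few of them. The 95% exact binomial interval of the ratio of CTL2 to CTL1 held 1 for 6 of the 6 genes, and that of KO3 to KO1 for 2 of 6, Lpl and Pparg. For the other 4 genes KO3 was the lower library, at 0.843 times the level of KO1 for Cd36, 0.890 for Fabp4, 0.912 for Fabp5 and 0.903 for Gpihbp1. Of the 4 ratios between a P1KO and a CTL library, 4 lay outside counting error for Cd36, Fabp4, Gpihbp1 and Pparg, 3 for Fabp5 and 2 for Lpl. For Cd36 this includes differences of 2.29% and 2.38%, which its many reads resolve but which are far smaller than the gap between KO1 and KO3. The levels of the 2 groups did not overlap for any of the 6 genes, nor for 62.6% of all tested genes. An exact permutation test of 2 against 2 libraries cannot give a two-sided p below 0.333, so no single gene was tested that way.

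**Figure D3:**
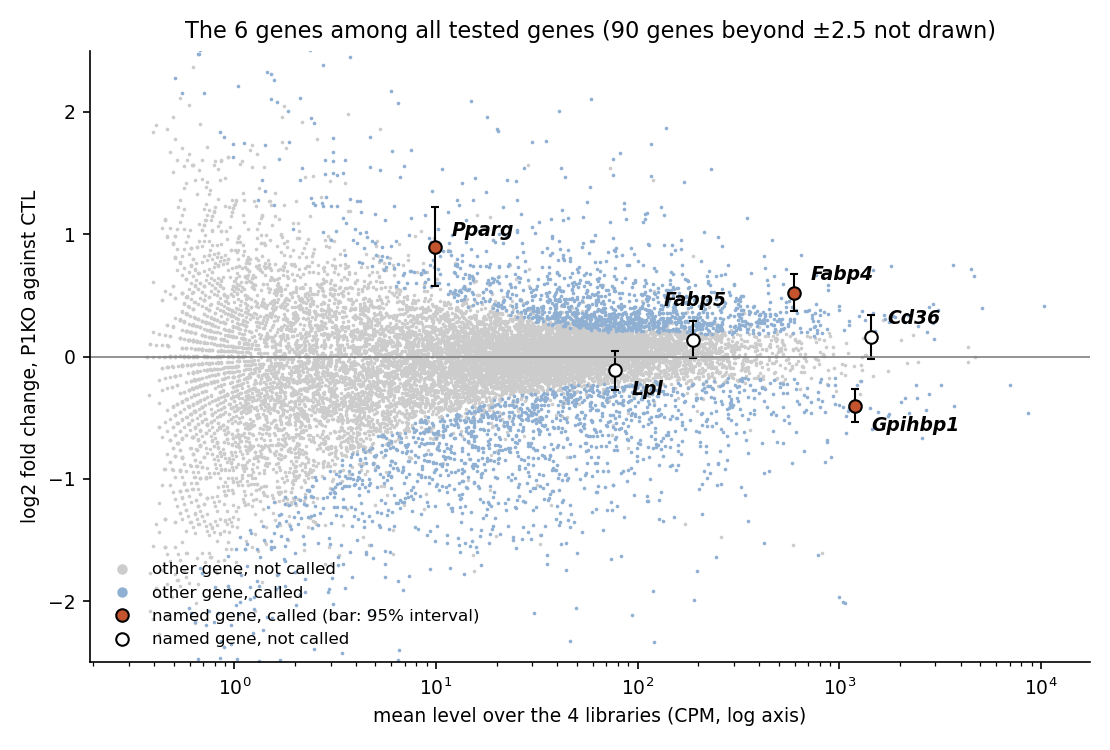
Log2 fold change of P1KO against CTL by mean level (CPM, log axis) for the tested genes, with called genes in light blue and the 6 named genes as large circles with 95% intervals (filled where called). Pparg has the largest change of the 6 genes, Fabp4 and Gpihbp1 lie on opposite sides of 0, and 90 genes with a change beyond 2.5 in size are not drawn.

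Ordered by fold change, the genes ran from Pparg through Fabp4, Cd36, Fabp5 and Lpl to Gpihbp1. Among neighbours in that order, the 95% intervals overlapped between Pparg and Fabp4, between Cd36 and Fabp5, between Fabp5 and Lpl, and, at 0.829 against 0.830, barely between Lpl and Gpihbp1. Those of Fabp4 (from 1.30) and Cd36 (to 1.26) did not overlap. The called rises had a median of 1.32-fold over all genes, so both Pparg and Fabp4 were above the median of their kind. The differences between genes were not themselves tested. Levels were not ordered between genes, since that needs transcript lengths, which are not used here.

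Ratios of reads between 2 genes of the same library do not depend on how the libraries are scaled, and only their change between libraries is of use, because gene length sets their absolute value. These ratios were chosen after the values were seen and carry no test. Per read of Gpihbp1, Fabp4 had 0.361 and 0.362 reads in the controls, 0.691 reads in KO1 and 0.681 reads in KO3. This ratio was thus 1.90-fold higher in P1KO, which restates the rise of Fabp4 and the fall of Gpihbp1 as 1 value. KO3 was the lower P1KO library for both genes. The gap between KO1 and KO3 was 0.02 on the log2 scale for this ratio, against 0.17 for Fabp4 and 0.15 for Gpihbp1 alone. Cd36 per read of Gpihbp1 was 0.990 and 0.9998 in the controls, 1.52 in KO1 and 1.42 in KO3. For this ratio KO3 stood apart from the controls as KO1 did, but in KO3 this came almost wholly from the fall of Gpihbp1. Against the CTL mean on the log2 scale, KO3 was at 0.033 for Cd36 and -0.48 for Gpihbp1, and KO1 at 0.28 and -0.33. The ratio therefore does not show that Cd36 itself was higher in KO3. Lpl per read of Gpihbp1, the enzyme against its anchor, was 0.0609 and 0.0574 in the controls, 0.0665 in KO1 and 0.0787 in KO3. That is 1.22-fold higher in P1KO, but the gap between KO1 and KO3, 0.24 on the log2 scale, was nearly as large as the difference of 0.29. Of the paired carriers, Fabp4 had 2.78 and 2.73 reads per read of Fabp5 in the controls, 3.63 in KO1 and 3.55 in KO3. This ratio was 1.30-fold higher in P1KO. Cd36 per read of Fabp5 was 7.64 and 7.52 in the controls, 7.98 in KO1 and 7.38 in KO3, and here the groups overlapped.

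**Figure D4:**
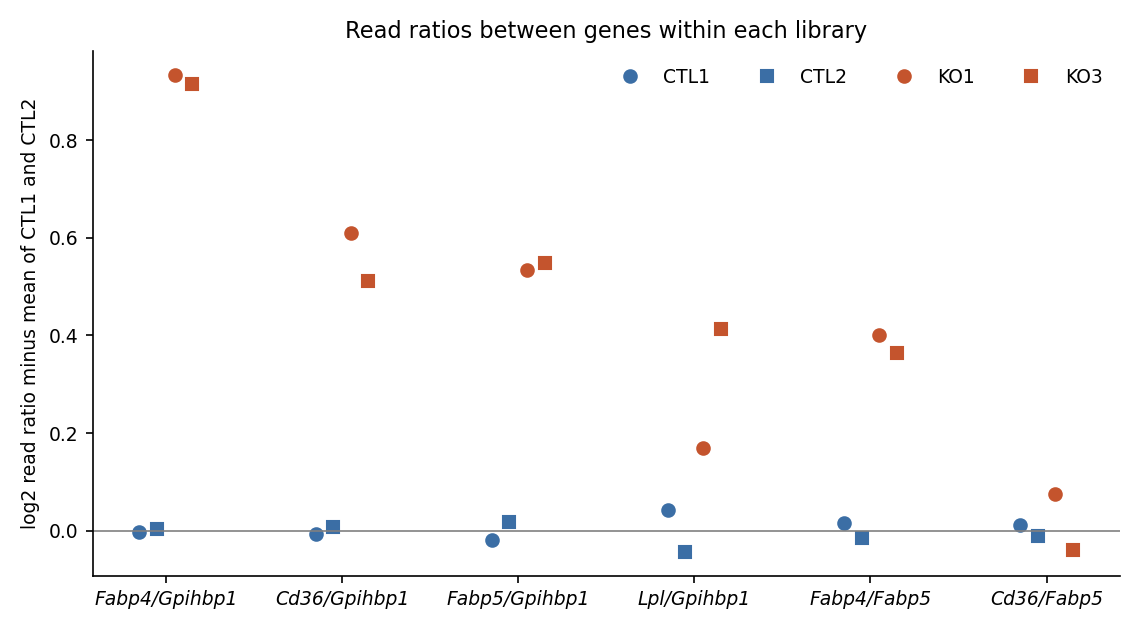
Read ratio between 2 genes in each library, as the log2 ratio minus the mean of CTL1 and CTL2 (circles, CTL1 and KO1; squares, CTL2 and KO3; blue, CTL; orange, P1KO). KO1 and KO3 sit together near 0.9 for Fabp4 per read of Gpihbp1, lie apart for Lpl per read of Gpihbp1, and lie on both sides of 0 for Cd36 per read of Fabp5.

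The genes with the most alike pattern were sought among 10979 tested genes of at least 5 CPM, by the Euclidean distance over the 4 libraries between log2 CPM values centred on the CTL mean. With 4 libraries many genes are alike. Within a distance of 0.1 lay 626 genes for Fabp5, 280 for Lpl, 178 for Cd36, 101 for Gpihbp1, 33 for Fabp4 and 11 for Pparg. The nearest to Fabp4 was ENSMUSG00000029640, at 66.7 and 66.2 CPM in the controls, 99.6 CPM in KO1 and 90.7 CPM in KO3. The nearest to Pparg was ENSMUSG00000001053, at 36.8, 37.2, 65.9 and 72.1 CPM. The nearest to Gpihbp1 were ENSMUSG00000019970, at 1134, 1127, 902 and 815 CPM, and ENSMUSG00000029175, at 69.7, 69.5, 55.9 and 50.2 CPM. None of the 6 genes was among the 2 nearest genes of another. Symbols were not matched to these identifiers.

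Each of the 6 genes has 0 overlapping genes in the RefSeq table. The annotation used for the counting was not compared with that table. Fabp4 lies between 2 relatives, Fabp9 at 7058 bases and Fabp12 at 35592 bases. How the counting treated reads that fit several genes is not known, and its effect on Fabp4 and Fabp5 was not tested.

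**Figure D5:**
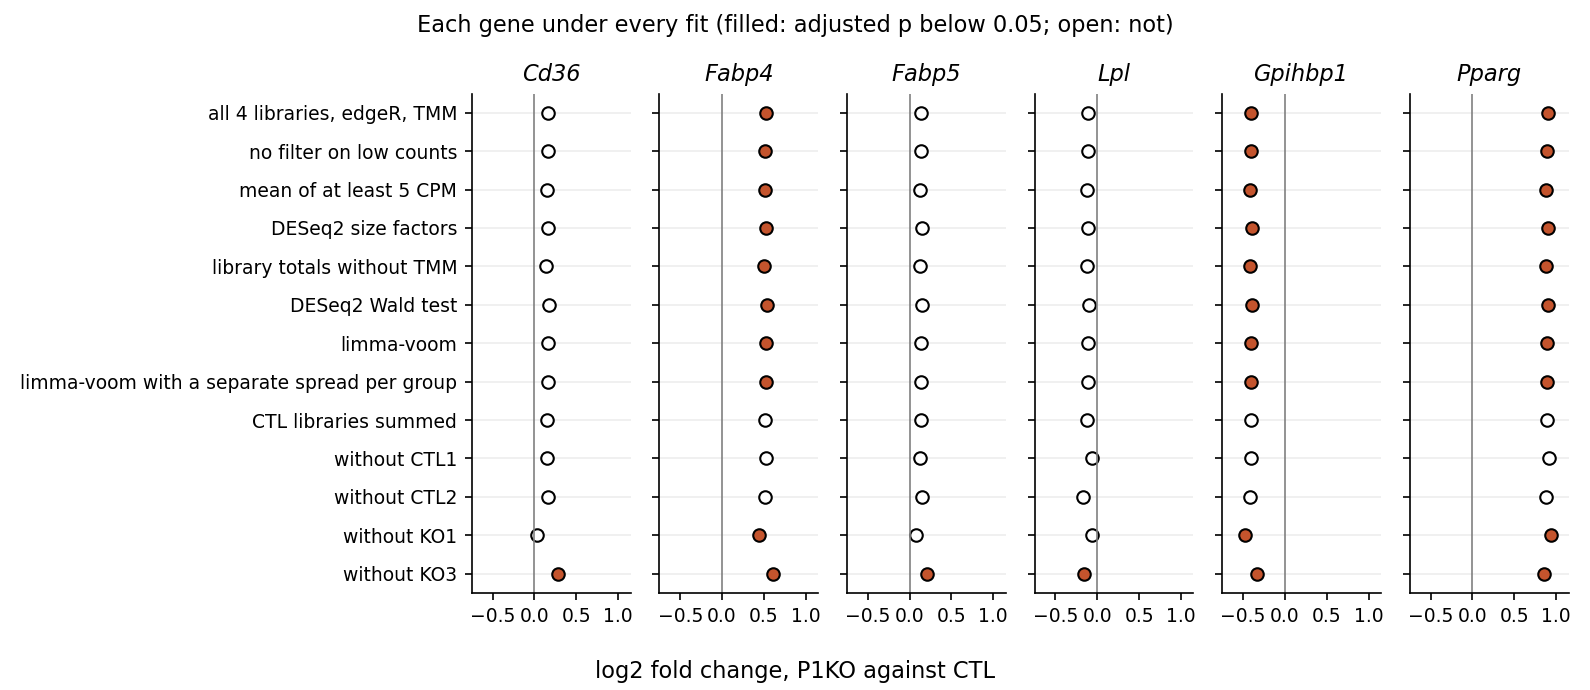
Log2 fold change of each gene in the test of all 4 libraries and under every alternative, filled where the adjusted p was below 0.05 and open where it was not. Fabp4 stays between 0.44 and 0.60, Gpihbp1 between -0.48 and -0.33 and Pparg between 0.85 and 0.94, but the points are open without CTL1, without CTL2 and with the CTL libraries summed.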

How the data were processed

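The authors deposited 1 table of raw read counts for 54532 Ensembl genes in 4 columns (CTL1, CTL2, KO1, KO3). All 4 were used. KO3 matches no sample number in the titles and was placed in P1KO by its name. Build mm10 and the tools featureCounts 1.5.0-p3, HISAT2 2.0.5, fastp and CASAVA are named in the submitters' processing notes. Annotation release, strand setting and treatment of multi-mapped reads were not given in the sources used here.

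Counts were tested with edgeR 4.0.16 in R 4.3.3 (filterByExpr, TMM, quasi-likelihood F-test, P1KO against CTL, no covariate), with Benjamini-Hochberg adjustment over all tested genes and calls below 0.05. The SE is the log2 fold change divided by the square root of F. Alternatives used limma 3.58.1 and DESeq2 1.42.0. The script was tested on simulated data. Log2 CPM used a prior count of 2. Positions come from the RefSeq gene table of GRCm38.p6, in which all 6 symbols were found. It holds 0 Ensembl identifiers, so the pairing of the 6 identifiers with their symbols was taken from the selection rule, and the 13 fixed lists of other genes (116 symbols) were not analysed here. No sequences were used. The 6 genes and the lists were chosen with earlier results of these data known. The rule for single genes was to name all 6 genes with every library's value, and the 2 nearest genes in pattern for each. Of the latter 2 identifiers that rose and 2 that fell are printed.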

Additional observations from a re-analysis of the deposited data

How the results depend on the processing

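None of the 6 genes changed direction under any of the 12 alternatives, which used other filters, scalings, tools or fewer libraries. With no filter, with a 5 CPM filter, with DESeq2 size factors, with library totals, in DESeq2, in limma-voom and in limma-voom with 1 spread for each group, Fabp4, Gpihbp1 and Pparg passed and the other 3 did not. With the CTL libraries summed into 1, 0 of the 6 genes passed, at log2 fold changes of 0.52 for Fabp4, -0.41 for Gpihbp1 and 0.89 for Pparg, and 152 genes passed in all, in place of 3027. Without the filter, 1633 genes passed in all. The other fits that kept the 4 libraries apart passed between 2143 genes (DESeq2) and 3110 genes (limma-voom) in all. Leaving out 1 library gave 0 to 6 of the 6 genes and 120 to 5391 genes in all. The log2 fold changes then ran from 0.033 to 0.28 for Cd36, 0.44 to 0.60 for Fabp4, 0.072 to 0.20 for Fabp5, -0.17 to -0.066 for Lpl, -0.48 to -0.33 for Gpihbp1 and 0.85 to 0.94 for Pparg. The remaining single library was assumed to vary as the other group does. Without a CTL library the spread thus came from the P1KO pair, and without a P1KO library from the CTL pair. The highest number of the 6 genes came from the fit without KO3, but the highest number in all from the fit without KO1. The numbers passing without 1 library depend on which pair set the spread and are no result about the 6 genes. No paired analysis was possible because the column name KO3 matches no P1KO title number, so CTL and P1KO share fewer than 2 numbers, and no label ties equal numbers to a shared litter, batch or day. The lists of other genes could not be run. Depth limits Pparg most, at 122 to 237 reads per library.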

Other observations

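The gap between KO1 and KO3 on the log2 scale was 0.25 for Cd36, 0.17 for Fabp4, 0.15 for Gpihbp1 and 0.13 for Fabp5. It was 0.10 for Lpl and 0.09 for Pparg. The median gap was 0.09 for genes above the median level, where Pparg does not lie, and 0.15 for all tested genes. A gap above a median is common by definition. For Cd36, Fabp4, Gpihbp1 and Fabp5 the lower library was KO3, whichever way the gene differed from CTL. Over all tested genes above the median level the median of KO3 minus KO1 was -0.02, so a lower level in KO3 was common among them. In the CTL pair the gaps of Cd36, Fabp4, Gpihbp1 and Fabp5 were between 0.0012 and 0.024, against a median of 0.05, whereas that of Lpl was 0.0996, above its gap of 0.0955 in the P1KO pair. These values were looked at after the results were known and carry no test.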
